A study of Mus musculus with 9 samples.

Results

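Tspo encodes the translocator protein of the outer mitochondrial membrane, and its RNA level was examined in RAW264.7, a macrophage line from a mouse leukemia. The gene is 1 of 28137 identifiers in the expression table, found as the row whose Ensembl identifier (ENSMUSG00000041736) has the symbol Tspo in GENCODE M21. It was chosen by its FPKM values in these same libraries, which were known to differ between groups. Its levels are therefore given as a description with no test.

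The 9 libraries fall into 3 groups of 3, labeled NC siRNA (a negative control), SFRP2 siRNA and RAB6A siRNA. Per the labels, all cells were transfected with 60 nM siRNA for 6 h, returned to complete medium for 12 h, and then given lipopolysaccharide (LPS) at 100 ng/ml for 24 h before RNA was taken. No library without LPS was analysed here, so that every level below is that of a stimulated macrophage line with a transfected siRNA. The methods text of the study describes another transfection protocol and an added interferon, and it was not resolved which of them these cells received. The labels do not state separate cultures, so p-values measure only the spread between libraries, which may be technical. It is also not stated whether the libraries labeled siRNA-1, siRNA-2 and siRNA-3 each received a different SFRP2 siRNA.

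The translocator protein spans the outer mitochondrial membrane and binds cholesterol, porphyrins and a range of synthetic ligands, including the tracers used to image activated microglia and macrophages. It was first known as the peripheral benzodiazepine receptor, and the acyl-CoA-binding protein encoded by Dbi is its classical endogenous ligand. In steroid-making tissue it has been linked to the import of cholesterol into mitochondria, a role that is debated.

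Values are FPKM, in which fragments are scaled to the exon length of a gene and to the size of the library, so that levels of different genes are compared per length. Multiplied by exon length, they are whole multiples of the value of a single read, which gave the depth of each library. It ranged from 32758724 to 47149252 reads. Of the markers for the labeled cell type, all 9 macrophage genes were present, with a summed level of 4729 to 5188 FPKM in NC siRNA, 4213 to 4536 in SFRP2 siRNA and 4031 to 4193 in RAB6A siRNA. The 10 markers of fibroblasts, epithelium, endothelium and other blood cells summed to between 2.60 and 4.07 FPKM in each library. The targeted genes gave a weak check of the labels. Sfrp2 was near the detection limit in all groups, with means of 0.0213 FPKM in NC siRNA, 0.0401 in SFRP2 siRNA and 0.0482 in RAB6A siRNA, and so checks nothing. Rab6a was 24.3, 27.3 and 25.5 FPKM in the NC siRNA libraries and 21.2, 20.7 and 20.4 in the RAB6A siRNA libraries. The groups did not overlap, as in 77.4% of the genes tested between them, and the log2 fold change of -0.31 (SE 0.06) had an adjusted p of 0.0024 in limma with Benjamini-Hochberg adjustment. When GC content and length were corrected for, this value was 0.02 (adjusted p = 0.79), so the libraries are named here by their labels.

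Tspo lies on the + strand of chromosome 15 at chr15:83563592-83574203 (GRCm38). GENCODE M21 gives it 2 transcripts, ENSMUST00000047419.7 of 837 bases in 4 exons and ENSMUST00000208463.1 of 551 bases in 3 exons, which together cover 1051 exonic bases. The first exon of the longer transcript (chr15:83563592-83563644) lies within an exon of Mcat, a gene of mitochondrial fatty acid synthesis that is read from the other strand (chr15:83563589-83563787). The shared stretch is 53 bases, or 5.04% of the exonic bases of Tspo. Whether reads were counted by strand is not stated, so reads from these bases cannot be assigned to either gene with certainty. A search of all transcripts for runs of 40 bases found in Tspo, on either strand, returned Mcat alone.

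**Figure D1:**
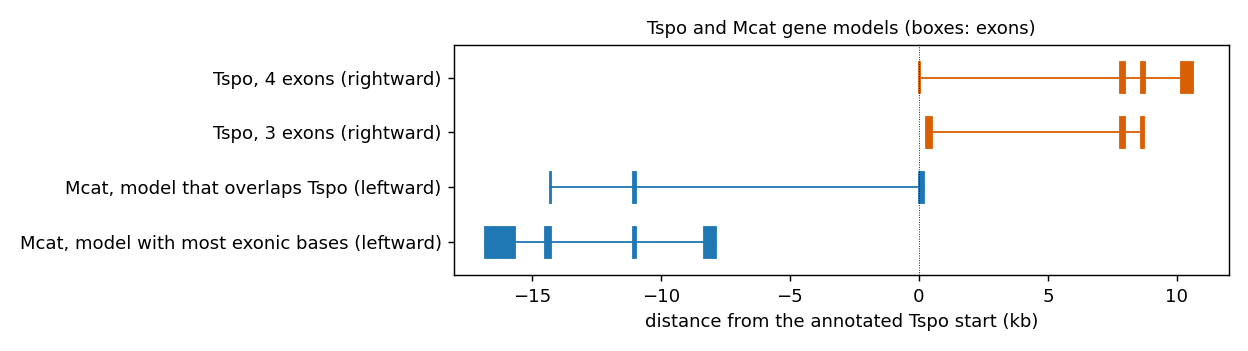
Gene models of Tspo and Mcat in GENCODE M21, drawn to scale along the distance in kb from the annotated start of Tspo, with exons as boxes. Both Tspo transcripts run rightward, and of the Mcat models shown the one with an exon at the start of Tspo shares 53 bases with it.

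The siRNA guide strands listed in the supplement of the study were compared with the Tspo transcripts, because a match of the seed (bases 2 to 8) is how an siRNA can act on a transcript other than its target. The seed is in capitals, and each guide is written 5′ to 3′ without its overhang.
NC: aCGUGACAcguucggagaa
SiRNA-1: uUCAUGACcagcggaaucc
SiRNA-2: uUGUCGUCcucauucuugg
SiRNA-3: aUCUUGGUgucucuguuga
On the transcript the seed of NC would pair with the site TGTCACG, that of SiRNA-1 with the site GTCATGA, that of SiRNA-2 with the site GACGACA and that of SiRNA-3 with the site ACCAAGA. Sites were searched on the transcript strand. None was found in either Tspo transcript, nor was the same site without its first base. Among 2227 protein-coding transcripts of 787 to 887 bases, the share that holds the site was 1.17% for NC, 5.25% for SiRNA-1, 3.37% for SiRNA-2 and 11.7% for SiRNA-3. The sequence of the RAB6A siRNA was not analysed here.

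Tspo was high in the RAB6A siRNA libraries and lowest in the SFRP2 siRNA libraries. The NC siRNA libraries measured 15.8, 14.9 and 16.2 FPKM, from 689, 739 and 725 reads. The SFRP2 siRNA libraries measured 11.7, 11.9 and 11.5 FPKM, from 498, 487 and 421 reads. The RAB6A siRNA libraries measured 61.3, 65.9 and 49.4 FPKM, from 2341, 2622 and 1702 reads. No library of any group overlapped with another group. Against NC siRNA, the groups did not overlap in 77.4% of all genes tested with RAB6A siRNA and 24.7% with SFRP2 siRNA. This separation is therefore not particular to Tspo. The third RAB6A siRNA library was the lowest of its group while still 3.05 times the highest NC siRNA library. Bulk RNA cannot tell apart a change in the number of cells that express the gene from a change in RNA per cell.

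The group means were 15.6 ± 0.665 FPKM in NC siRNA, 11.7 ± 0.195 in SFRP2 siRNA and 58.9 ± 8.51 in RAB6A siRNA (SD, n = 3). The mean of RAB6A siRNA was 3.77 times that of NC siRNA, a difference of 1.90 (SE 0.13) on the scale of log2(FPKM + 0.1). The mean of SFRP2 siRNA was 0.749 times that of NC siRNA, a difference of -0.41 (SE 0.04). Between the siRNA groups at either end the ratio was 5.03. The order of means was thus SFRP2 siRNA, NC siRNA, RAB6A siRNA.

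**Figure D2:**
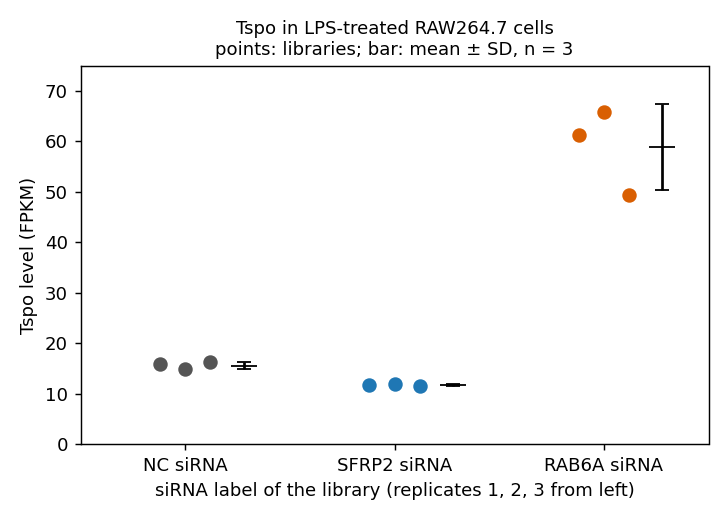
Tspo level in FPKM in each of the 9 libraries, by siRNA label, with the mean and SD of each group (n = 3). The RAB6A siRNA libraries lie between 49.4 and 65.9 FPKM, above all NC siRNA libraries, and the SFRP2 siRNA libraries lie between 11.5 and 11.9 FPKM, below them.

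Among all genes above 0, Tspo ranked 2796 to 2997 by FPKM in the NC siRNA libraries, 3588 to 3695 in the SFRP2 siRNA libraries and 611 to 801 in the RAB6A siRNA libraries. It thus moved from the top 14.3% of expressed genes to the top 3.8% or better with RAB6A siRNA. Of 12712 genes tested in RAB6A siRNA against NC siRNA, 916 (7.21%) had a higher log2 fold change than Tspo. Of 12017 genes tested in SFRP2 siRNA against NC siRNA, 349 (2.90%) had a lower one.

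Both differences were smaller after a correction for base composition and length. The longer Tspo transcript has a GC content of 58.8%, and 94.5% of the genes tested with RAB6A siRNA have a lower one. Tspo is also short, and 14.9% of the same genes have a smaller exon length. Over 11903 genes, the log2 fold change of SFRP2 siRNA had a Spearman's rho of -0.482 with GC content and 0.172 with length. Over 12535 genes, that of RAB6A siRNA had a rho of 0.0785 with GC content and -0.214 with length. These are descriptions across genes, which are not independent replicates. With both properties taken out by a spline, the Tspo difference was 1.36 (SE 0.08) for RAB6A siRNA and -0.30 (SE 0.05) for SFRP2 siRNA. The direction was kept in both, and the part of GC content and length in the differences was not tested.

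Set against the RNA of Vdac1, Dbi and Slc25a4 within the same library, Tspo followed the same order. With RAB6A siRNA these genes had log2 fold changes of 0.16, 0.11 and 0.25, far less than Tspo. The order of the ratios therefore follows from the Tspo values already given and is no separate support. The ratio of Tspo to Vdac1, the abundant anion channel of the outer membrane, was 0.321, 0.297 and 0.318 in NC siRNA. It was 0.25, 0.255 and 0.228 in SFRP2 siRNA, and 1.21, 1.15 and 0.824 in RAB6A siRNA. The FPKM of Tspo was therefore well below that of the channel in control cells and similar to it in the RAB6A siRNA libraries. The mean ratio to its ligand gene Dbi was 0.323 ± 0.0067 in NC siRNA, 0.263 ± 0.015 in SFRP2 siRNA and 1.13 ± 0.12 in RAB6A siRNA (SD, n = 3). Against Slc25a4, the adenine nucleotide carrier of the inner membrane, the means were 0.329, 0.27 and 1.04 in the same order.

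Of the 3 nearest genes on each side of Tspo, 2 passed the filter. Mcat, which overlaps it, had means of 2.40 ± 0.400 FPKM in NC siRNA, 1.90 ± 0.479 in SFRP2 siRNA and 2.92 ± 0.237 in RAB6A siRNA, the same order of means as Tspo. Its libraries overlapped between groups, and its log2 fold changes of 0.29 with RAB6A siRNA (adjusted p = 0.085) and -0.33 with SFRP2 siRNA (adjusted p = 0.4) were not called by limma. Ttll12, the next gene on the other side, was lower with RAB6A siRNA, from 8.55 ± 0.534 to 6.65 ± 0.101 FPKM, with a log2 fold change of -0.36 (SE 0.07, adjusted p = 0.0019 in limma). Bik, Gm46495, Scube1 and Efcab6 were at 0.145 FPKM or less in each library and were not tested.

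Genes around the biology of Tspo were examined in 6 lists, with 120 members in the table. RAB6A siRNA differed from NC siRNA across much of the transcriptome, and limma called 74.1% of the 12712 genes tested at an adjusted p under 0.05, of which 37.6% of all tested genes were higher and 36.5% lower. Of the 108 list members past the filter, 83 were called, 45 higher and 38 lower, and their median log2 fold change was 0.11 beside 0.03 over all genes. The share called is near that of all genes, so it is no result about these lists. The 83 include Tspoap1 and Miga2, which passed the filter only through the group where each is higher. The calls of Tspoap1 and Miga2 are not read as results. After the GC and length correction with the replicate number as a block, 64.6% of the members called were higher, beside 54.2% without them. Over all genes called, the same setting moved this share from 50.7% to 55.2%. The macrophage markers Lyz2 and Csf1r fell in the same libraries (log2 fold change -2.03 and -1.44, adjusted p = 1.9e-06 and 7.8e-06 in limma), and 4 of the 9 markers were called lower and 1 higher. Their part in the list values was not tested.

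Over all genes tested, 74.1% were called with RAB6A siRNA. In the list of ligands and partners, 4 of 15 members tested rose, 6 fell and 5 were not called (median 0.03). 1 of the 4, Tspoap1, passed the filter on low values only through the group where it is high. Tspoap1, which encodes a protein that binds Tspo, was 0.299, 0.342 and 0.248 FPKM in NC siRNA and 4.40, 3.07 and 2.91 in RAB6A siRNA. It was under the filter in control cells, and a gene that passes in this way had to differ, so its values are given with no test. Acbd6, of the same acyl-CoA-binding family as Dbi, rose from 4.69 to 9.32 FPKM (log2 fold change 0.96), Acbd5 rose by 0.34 and Slc25a4 by 0.25 (0.38 after the GC and length correction). Dbi itself was 49.9, 46.1 and 49.3 FPKM in NC siRNA and 55.3, 52.8 and 48.4 in RAB6A siRNA. These libraries overlapped, and the log2 fold change of 0.11 did not pass the test (adjusted p = 0.19 in limma). Limma called it without RAB6A siRNA replicate 3 (0.16, adjusted p = 0.045) and after quantile normalization (0.24, adjusted p = 0.0087), while after the GC and length correction it was -0.13 (adjusted p = 0.088), so no direction is given for Dbi.

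Among the channel and pore proteins, Ppif, the cyclophilin of the permeability transition pore, fell by 0.99. Vdac2 fell by 0.46, which became -0.12 after the GC and length correction (adjusted p = 0.039 in limma), and its call was lost when the replicate block was added (adjusted p = 0.072). Vdac1 (0.16, adjusted p = 0.085), Vdac3 (-0.05) and Slc25a5 (0.03) were not called by limma. Vdac1 was called without RAB6A siRNA replicate 1 (0.23, adjusted p = 0.012) and after the GC and length correction (0.35, adjusted p = 0.0018), and Slc25a5 fell by 0.34 after quantile normalization (adjusted p = 0.00074). The adaptor genes Ywhag and Ywhae fell by 1.33 and 0.67, Atad3a, of the inner membrane, by 0.96, and Prkar1a, a regulatory subunit of protein kinase A, by 0.53 (-0.19 after the GC and length correction). Ywhag was 72.4, 66.7 and 70.2 FPKM in NC siRNA and 26.4, 28.3 and 28.4 in RAB6A siRNA, with no overlap. Acbd3 had a log2 fold change of 0.10 and was not called, but was called higher by limma after the GC and length correction (0.27, adjusted p = 0.012), and Acbd7 was at or near 0 in each library.

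In the steroidogenesis list, 5 of 9 members tested rose, 1 fell and 3 were not called (median 0.35). After the GC and length correction, 7 were called higher and 0 lower, with a median of 0.68. 1 of the 7 was Star, which passed the filter only through RAB6A siRNA, so its call is not read as a result. Both medians are the values of Star itself. Over all genes, the same correction gave 9406 calls among 12535 genes, with a median of 0.09. The count of calls is therefore no result about this list. Cyp27a1, the mitochondrial sterol 27-hydroxylase, was 4.21, 4.10 and 4.37 FPKM in NC siRNA and 12.3, 12.1 and 9.95 in RAB6A siRNA. Its log2 fold change was 1.41 (SE 0.09, adjusted p = 9.1e-06 in limma). The reductase gene Fdxr, which supplies electrons to such enzymes, rose from 2.23 ± 0.0613 to 5.55 ± 0.220 FPKM (log2 fold change 1.28, adjusted p = 5e-06 in limma). Npc2, of lysosomal cholesterol export, rose from 79.9 to 124 FPKM (0.63), Stard3 rose by 0.32 and Fdx1 by 0.45, while Npc1 fell by 0.30. The call of Fdx1 was lost without either of NC siRNA replicates 1 and 2 or RAB6A siRNA replicates 1 and 2 (log2 fold change 0.36, 0.46, 0.42 and 0.34, adjusted p = 0.099, 0.068, 0.084 and 0.1), and that of Npc1 after the GC and length correction (-0.05, adjusted p = 0.58).

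Genes that define steroid-making cells were at low levels. Star, the cholesterol transfer protein of these cells, had means of 0.479 FPKM in NC siRNA and 0.644 in RAB6A siRNA. It passed the filter only through the latter group, so no test of it is given. Cyp11a1, which makes the first steroid from cholesterol, had means of 0.219 FPKM in NC siRNA and 0.0455 in RAB6A siRNA and was under the filter. Hsd3b1, Hsd3b6 and Cyp17a1 were at or near 0 in all groups. Stard4 and Lonp1 were not called, with log2 fold changes of 0.20 and -0.02. After the GC and length correction, limma called Stard4 higher (0.52, adjusted p = 0.00065).

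In the heme list, 10 of 19 members tested rose and 5 fell (median 0.22). Over all genes tested, 37.6% were called higher and 36.5% lower. Ppox, an enzyme of the last steps of heme synthesis in mitochondria, was 2.08, 1.91 and 2.52 FPKM in NC siRNA and 8.97, 7.56 and 7.01 in RAB6A siRNA. Its log2 fold change was 1.81 (SE 0.13, adjusted p = 1.4e-05 in limma), and 2.05 after the GC and length correction. Slc25a38, the glycine carrier, rose from 6.05 to 11.6 FPKM (0.92), and Blvrb, a biliverdin reductase, from 19.2 to 35.7 FPKM (0.89). Tmem14c, a porphyrin transporter, fell by 0.58 and Blvra, the other biliverdin reductase gene, by 0.44, and after the GC and length correction these were -0.99 and -0.24. Hmox1, the inducible heme oxygenase, is named outside the rule after its values were seen, for its level, and rose from 707 ± 71.2 to 1185 ± 58.3 FPKM (0.75, adjusted p = 0.00022 in limma).

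Of 42 other outer membrane genes tested, 16 rose and 20 fell, with a median of -0.18. After the GC and length correction 16 were called higher and 15 lower, with a median of -0.02. Tomm40l, a paralog of the import channel gene Tomm40, was 0.899, 0.731 and 0.824 FPKM in NC siRNA and 4.63, 3.77 and 3.34 in RAB6A siRNA, a log2 fold change of 2.12 (SE 0.15, adjusted p = 1.1e-05 in limma). The mitophagy receptors Bnip3l and Bnip3 rose by 1.43 and 0.83. Hk2, a hexokinase that docks on the outer membrane, was 36.0, 31.7 and 33.7 FPKM in NC siRNA and 9.68, 10.3 and 10.1 in RAB6A siRNA (-1.74, SE 0.07, adjusted p = 1.4e-06 in limma). Hk1, the other hexokinase gene of the list, went the other way, from 35.4 to 52.1 FPKM (0.56, adjusted p = 0.00018 in limma). Cpt1a, the carnitine transferase of fatty acid entry, fell by 1.34. Miga2, of mitochondrial fusion, had means of 1.13 FPKM in NC siRNA and 0.414 in RAB6A siRNA. It passed the filter only through NC siRNA, so no test of it is given, though the counts of lower genes above include it. The 13 genes encoded by mitochondrial DNA had a median log2 fold change of -0.73, with 4 called higher and 6 lower. That share is near the 74.1% of all genes called. Their log2 fold changes ran from -2.97 to 1.37. Their summed level was 69732 to 83336 FPKM in NC siRNA and 67341 to 76654 in RAB6A siRNA, so the median does not stand for a fall of the sum. Nor does the sum stand for unchanged genes. The mean of mt-Co1 rose from 23215 to 58699.6 FPKM, while mt-Nd1 fell from 20209 to 2574 and mt-Cytb from 16352 to 4307.

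Of 16 genes tested in the list of factors described for Tspo promoters, which also holds the kinase gene Prkce, 8 rose and 5 fell (median 0.27). Over all genes tested, 37.6% were called higher and 36.5% lower. Jund, Fosl2 and Jun, members of the AP-1 family, rose by 1.72, 1.19 and 1.16. Jund was 6.42, 7.10 and 5.74 FPKM in NC siRNA and 27.5, 21.2 and 16.6 in RAB6A siRNA, with the third library again the lowest of its group. Fos, of the same family, fell by 1.13, and the ETS factors Ets2 and Spi1 fell by 1.33 and 1.05. Spi1, the PU.1 factor of the myeloid lineage, was 126, 124 and 141 FPKM in NC siRNA and 68.1, 63.4 and 57.3 in RAB6A siRNA. Of the 7 NADPH oxidase genes, Cyba and Rac2 rose by 0.62 and 0.38 and Ncf1 fell by 0.18, beside 74.1% of all genes called. These 3 calls depended on the processing. Cyba was at 0.07 (adjusted p = 0.32) and Ncf1 at 0.03 (adjusted p = 0.62) after the GC and length correction, and Rac2 was at -0.01 (adjusted p = 0.92) after quantile normalization, by limma. The call of Ncf1 was also lost without any of the NC siRNA libraries or without RAB6A siRNA replicate 1 (log2 fold change -0.17, -0.18, -0.19 and -0.13).

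**Figure D3:**
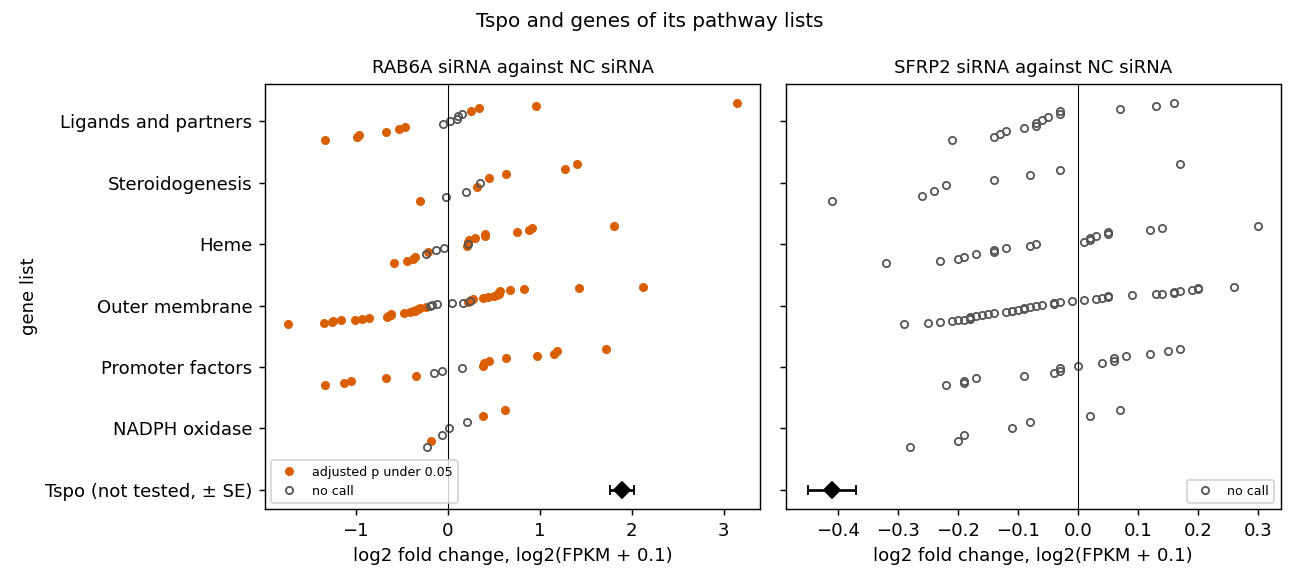
Log2 fold changes, on log2(FPKM + 0.1), of the members of 6 lists in each comparison, with filled points for an adjusted p under 0.05 in limma and open points for no call, and Tspo as a diamond with its SE. With RAB6A siRNA 45 members were called higher and 38 lower, and with SFRP2 siRNA none was called. The filled points include Tspoap1 and Miga2, which passed the filter only through the group where each is higher. The scales of the panels differ.

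With SFRP2 siRNA, no list member passed the test, and neither did any other gene. Limma called 0 of 12017 genes (0%), while 2220 (18.5%) had an unadjusted p under 0.05. Voom on the recovered reads called 42 genes, none of them in the lists. The study itself reports genes that differ with SFRP2 siRNA in RAW264.7 cells, by DESeq2 with a threshold on fold change. That is another test than limma on FPKM, so the 0 calls here do not show that no gene changed. Of 106 list members tested, 69 had a lower mean log2 level than in NC siRNA and 37 a higher one, and their median was -0.07 beside -0.01 over all genes. An unadjusted p under 0.05 was found for 27 members, 4 higher and 23 lower, beside 7.73% of all genes higher and 10.7% lower. The GC and length correction moved the median of steroidogenesis from -0.18 to -0.08 and of heme from -0.07 to -0.02. Ligands and partners moved from -0.06 to -0.03, promoter factors from -0.02 to 0.01 and NADPH oxidase from -0.11 to -0.07. Outer membrane stayed at -0.07. The part of GC content in these values was not tested. The comparison shares its NC siRNA libraries with that of RAB6A siRNA.

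The members of smallest p were all lower in SFRP2 siRNA, without passing adjustment. Slc25a5 had means of 236 FPKM in NC siRNA and 205 in SFRP2 siRNA (log2 fold change -0.21, SE 0.05, adjusted p = 0.178 in limma). Npc2 was 80.1, 79.0 and 80.6 FPKM in NC siRNA and 72.0, 68.5 and 62.1 in SFRP2 siRNA (-0.24, adjusted p = 0.178 in limma). Blvrb was 19.9, 18.7 and 18.8 FPKM in NC siRNA and 16.2, 16.2 and 13.7 in SFRP2 siRNA (-0.32, adjusted p = 0.178 in limma). In Npc2 and Blvrb the groups did not overlap, as in 24.7% of all genes tested. The others were Prkar1a (-0.14), Stard3 (-0.26), Slc25a39 (-0.19), a carrier of the inner membrane, Hk1 (-0.29), Tomm5 (-0.21), Spi1 (-0.19), Usf2 (-0.17), Rac2 (-0.28) and Cyba (-0.20), with adjusted p between 0.169 and 0.253 in limma. The lowest log2 fold change in the lists was that of Fdx1 (-0.41, SE 0.17, adjusted p = 0.253 in limma). The difference of Tspo in the same libraries was -0.41, given with no test because Tspo was chosen by its values.

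The genes most like Tspo were ranked by Pearson's r of log2(FPKM + 0.1) over the 9 libraries, among 12548 genes with a mean of at least 0.5 FPKM. The points share 3 groups, and r rests mainly on the distance of the RAB6A siRNA libraries from the rest, so 1780 genes had an r of at least 0.95. The 10 highest were 2210020O09Rik, an antisense transcript (r = 0.9992), Rpl31 (0.9976), Upp1 (0.9976), Anxa2 (0.9975), Aldoc (0.9975), Use1 (0.9975), the processed pseudogene Gm15772 (0.9973), Prdx5 (0.9972), Atp2a3 (0.9971) and Card19 (0.9970). The antisense transcript was under the filter in NC siRNA and SFRP2 siRNA and passed it only through RAB6A siRNA, so its place is set by that group and the pseudocount. All were highest in RAB6A siRNA and lowest in SFRP2 siRNA, the order in which Tspo lies, which largely follows from their choice by r.

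Upp1, the uridine phosphorylase, had means of 48.7 FPKM in NC siRNA, 34.0 in SFRP2 siRNA and 206 in RAB6A siRNA. Prdx5, a peroxiredoxin found in mitochondria, had means of 96.2, 80.4 and 295 FPKM in the same order, and Aldoc, a glycolytic aldolase, 18.5, 15.1 and 48.2. The antisense transcript was listed at 0 in all SFRP2 siRNA libraries and had means of 0.0901 FPKM in NC siRNA and 4.65 in RAB6A siRNA. Without a stated strand setting, its reads cannot be told apart from those of the gene on the other strand. Gm15772 is a processed pseudogene, and reads of its parent gene may be counted in it. The 5 genes of lowest r were Jade3 (-0.9982), Papola (-0.9973), Zfp961 (-0.9969), Ell2 (-0.9968) and Usp34 (-0.9968). They showed the opposite order, which also largely follows from their choice by r. Papola, the poly(A) polymerase, had means of 46.3 FPKM in NC siRNA, 51.9 in SFRP2 siRNA and 23.9 in RAB6A siRNA.

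**Figure D4:**
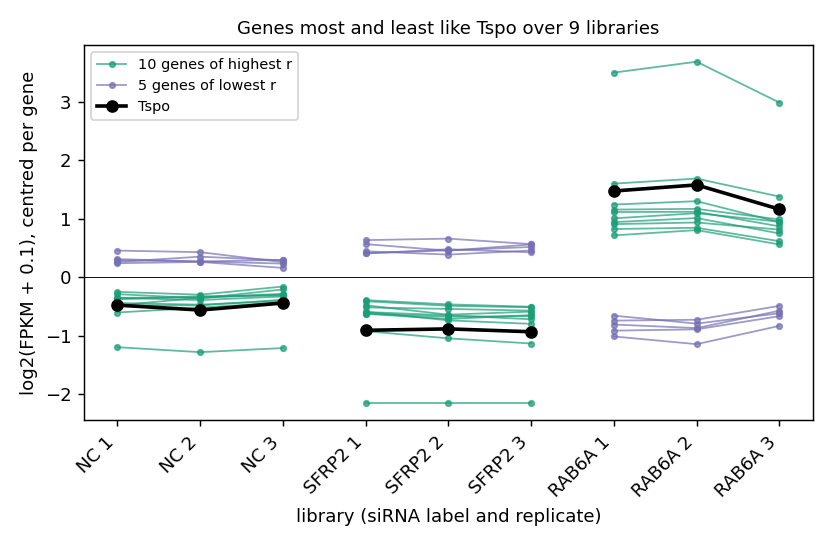
Level of Tspo (black), of the 10 genes with the highest r (green) and of the 5 with the lowest r (purple) in each library, as log2(FPKM + 0.1) centred on the mean of each gene, with lines joining libraries of a group only. The green genes lie lowest in SFRP2 siRNA and highest in RAB6A siRNA, as Tspo does, and the purple genes lie in the opposite order. Both orders largely follow from the choice of the genes by r.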

How the data were processed

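RNA-seq of 9 RAW264.7 libraries was analysed from the FPKM per gene and library that the authors deposited. The submitters' processing notes name HISAT2, featureCounts and Subread. The genome build, annotation and strand setting are not given in the sources used here. Of 28137 Ensembl identifiers, 27533 were named from GENCODE M21 (GRCm38). Reads were recovered from FPKM and exon length, and were whole within 0.03 in all libraries for 98.3% of named genes.

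Differential expression was tested with limma 3.58.1 in R 4.3.3 (lmFit, eBayes with trend) on log2(FPKM + 0.1), for genes with a mean of at least 0.5 FPKM in the 6 libraries compared, and p-values were adjusted over all genes tested (Benjamini-Hochberg). A log2 fold change on this scale understates the change of low genes. On data simulated for RAB6A siRNA against NC siRNA, 197 of 200 genes changed by a log2 fold of 1 were called, and 50 of 200 at 0.5. For SFRP2 siRNA these were 197 and 48. The simulation gave every gene the same dispersion and changed 200 genes only, while in the data 74.1% of genes were called for RAB6A siRNA. These shares therefore do not measure the sensitivity of either comparison in the data.

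Tspo and the lists were chosen with earlier results of these data known. Named were all ligands and partners and steroidogenesis members, the 3 highest and 3 lowest called members of the other lists with RAB6A siRNA, the 2 of smallest p per list with SFRP2 siRNA, 3 neighbours on each side, and the genes most and least like Tspo. 1 gene that this rule names is not reported here. Alternatives were other pseudocounts (1 and 0.01), filters and scalings, eBayes without trend, all 9 libraries in a single fit, a replicate block, a spline correction for GC content and length (5 degrees of freedom), voom on recovered reads, and each library left out. Python 3.11.15 was used for other steps.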

Additional observations from a re-analysis of the deposited data

How the results depend on the processing

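Over 14 alternatives that apply to it, the Tspo difference of RAB6A siRNA from NC siRNA lay between 1.36 and 2.02, and that of SFRP2 siRNA between -0.45 and -0.30. The values of 1.36 and -0.30 came from the GC and length correction, with and without the replicate block. Without a library the ranges were 1.81 to 2.02 and -0.45 to -0.39. With RAB6A siRNA, 75 to 91 list members were called (75 to 87 without a library). Of the 83, 63 kept call and direction in all alternatives in which they were tested. These were 18 for each gene but Miga2, which was tested in 17. Rac2 reversed to -0.01 under quantile normalization, and Ncf1 to 0.03 and Rab6a to 0.02 under the GC and length correction, with and without the replicate block. The cause was not tested.

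With SFRP2 siRNA, no list member was called in any alternative. Over all genes voom called 42, 7 higher and 35 lower, and leaving out a library gave 0 to 1, the 1 without NC siRNA replicate 1. Same-numbered libraries did not deviate together (mean r -0.0102 over 9 pairs). With the replicate block 79 list members were called for RAB6A siRNA and 0 for SFRP2 siRNA. Among named genes, the block ended the calls of Fdx1 (adjusted p = 0.055) and Ncf1 (0.07) in limma, and with the GC and length correction also that of Vdac2 (-0.12, adjusted p = 0.072). Of 9 named genes not called with RAB6A siRNA, 5 changed sign in some alternative (Dbi, Lonp1, Slc25a5, Star and Vdac3).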
